A study of Mus musculus with 2 samples.

Results

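The red blood cells of the mouse esophagus are described here as the cells that the authors' deposited annotation calls Erythrocyte. Their members were taken by that label, which marks the same cells as cluster 7 of the 19 deposited clusters. There were 298 such cells among 4853, of which 120 of 2381 (5.04%, exact 95% interval 4.20 to 6.00) came from the Keap1 cKO library and 178 of 2472 (7.201%, 6.21 to 8.29) from the control library. The Keap1 cKO mice carried K5CreERT2::Keap1 floxB/floxB, in which the keratin 5 promoter drives a tamoxifen-dependent Cre recombinase in basal keratinocytes. The control mice carried Keap1 floxB/floxB without the Cre transgene, so the floxed Keap1 alleles were shared by both groups. Both were of the strain labelled Hybrid of C57BL/6J and BALB/c. The labels name no age, no induction of Cre and no number of mice behind each library. Esophagi stripped of their muscle were digested with trypsin-EDTA, and 10x Genomics 3′ libraries counted unique molecular identifiers (UMIs), each of which tags 1 captured RNA molecule. Each genotype had 1 library, so no difference between them has a replicate check and none was tested. The intervals given cover counting error only.

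Circulating mammalian red cells have lost their nucleus and make no new RNA. The youngest of them, the reticulocytes, still hold ribosomes and a shrinking store of messages, above all those of alpha and beta globin, whose proteins join in pairs to form hemoglobin. They finish hemoglobin, clear their mitochondria by mitophagy, degrade leftover proteins through ubiquitin and the proteasome, and remodel the membrane skeleton that lets them pass through capillaries. In droplet libraries a red cell also shares its droplet with RNA freed from other cells of the tissue, and a red cell holds so few messages of its own besides globin that this free RNA has to be set apart.

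The promoters of the adult globin genes and of Alas2, the erythroid enzyme that starts heme synthesis, are shown because these genes gave most of the RNA described below. Each line holds the 250 bases before the RefSeq start (GRCm38.p6), read on the gene's strand: Hba-a1 at chr11:32283422-32283671 on the plus strand, Hbb-bs at chr7:103827929-103828178 on the minus strand, Hbb-bt at chr7:103813924-103814173 on the minus strand and Alas2 at chrX:150547167-150547416 on the plus strand. Capitals mark 4 motifs on either strand: the GATA factor motif (GATAA, reverse TTATC), the CCAAT box (reverse ATTGG), the KLF motif (CACCC, reverse GGGTG) and the TATA box (TATAA, reverse TTATA).
Hba-a1: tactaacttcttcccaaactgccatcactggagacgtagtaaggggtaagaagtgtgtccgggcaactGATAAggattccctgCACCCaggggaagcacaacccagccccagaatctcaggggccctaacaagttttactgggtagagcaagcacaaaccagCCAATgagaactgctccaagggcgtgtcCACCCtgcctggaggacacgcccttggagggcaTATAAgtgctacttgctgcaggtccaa
Hbb-bs: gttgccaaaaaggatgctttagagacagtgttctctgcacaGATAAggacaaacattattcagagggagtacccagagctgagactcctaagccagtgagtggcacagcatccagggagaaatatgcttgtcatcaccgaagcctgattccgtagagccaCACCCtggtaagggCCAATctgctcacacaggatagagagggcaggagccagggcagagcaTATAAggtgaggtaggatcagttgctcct
Hbb-bt: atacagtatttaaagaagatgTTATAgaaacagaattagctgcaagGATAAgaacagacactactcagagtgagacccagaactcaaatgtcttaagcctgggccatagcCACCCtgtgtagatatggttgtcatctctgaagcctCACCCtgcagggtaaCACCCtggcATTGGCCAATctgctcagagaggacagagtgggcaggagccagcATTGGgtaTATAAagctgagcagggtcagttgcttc
Alas2: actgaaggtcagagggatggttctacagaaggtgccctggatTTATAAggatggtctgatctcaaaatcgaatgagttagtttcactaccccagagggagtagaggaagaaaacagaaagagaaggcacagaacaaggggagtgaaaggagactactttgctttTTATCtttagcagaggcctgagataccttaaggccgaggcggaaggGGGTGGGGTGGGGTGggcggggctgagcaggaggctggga

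All 4 motifs stood in each of these globin windows, with the TATAA letters on the gene's strand 27 bases before the start in Hba-a1, 29 in Hbb-bs and 28 in Hbb-bt. The Alas2 window held all but the CCAAT box. Among all 32851 RefSeq promoter windows of this length, 22.6% held GATAA, 33.8% CCAAT, 52.01% CACCC and 22.8% TATAA, and 0.968% held all 4. TATAA can overlap its own reverse, as it did in Alas2, and a match of letters is no evidence of a bound factor. The window of Hba-a2, at chr11:32296242-32296491, repeated that of Hba-a1 without a difference over the 247 bases they shared when aligned, whereas those of Hbb-bs and Hbb-bt were identical at 178 of 243 aligned bases (73.3%). The alpha globin transcripts were as close: 537 of 538 aligned bases of Hba-a1 and Hba-a2 matched, against 580 of 626 for Hbb-bs and Hbb-bt. Reads of the paired copies can therefore be hard to place, and the labels do not say how the counting split them, which leaves each split between copies below uncertain.

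The markers went with the label. Hba-a1, Hbb-bs and Alas2 had UMIs in every red cell of both libraries, Bpgm in 113 of 120 Keap1 cKO and 173 of 178 control red cells, and Tent5c in 119 and 168. Red cells held a median of 10271.5 UMIs (3375 to 13559) from 328 genes in the Keap1 cKO library and 10831 UMIs (5269 to 14635) from 322.5 genes in the control library. The other cells of those libraries held medians of 7774 UMIs from 2736 genes and 11548 UMIs from 3421.5 genes. The fewest genes in a red cell were also the fewest in any cell of the table, and 8 Keap1 cKO and 20 control red cells had 220 genes or fewer. The share of red cells is therefore that of the cells above such a minimum. No cell barcode was shared between the red cells of the libraries, and 5 were shared over all cells. Keap1 itself had 2 UMIs in Keap1 cKO red cells and 4 in control red cells, too few to check the genotype.

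Globin messages made up 93.1% of the UMIs of Keap1 cKO red cells (93.1 to 93.2) and 93.5% of those of control red cells (93.5 to 93.6). Hbb-bs, the larger of the adult beta globin genes (chromosome 7, 103826534 to 103828096, minus strand, mm10), gave 628311 UMIs in the Keap1 cKO library and 1006541 in the control library, which was 51.95% and 52.5% of all red cell UMIs. Hba-a1, an adult alpha globin gene (chromosome 11, 32283511 to 32284465, plus strand), gave 231336 and 375906 UMIs, or 19.1% and 19.6%. Hbb-bt, the second beta globin gene (chromosome 7, 103812524 to 103813996, minus strand), gave 141556 and 226571 UMIs, or 11.7% and 11.8%. Hba-a2, the second alpha globin gene (chromosome 11, 32296489 to 32297298, plus strand), gave 125106 and 183163 UMIs, or 10.3% and 9.56%. The order of the 4 genes was thus the same in both libraries.

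Alpha globin UMIs were fewer than beta globin UMIs in every red cell. Their ratio was 0.463 in Keap1 cKO red cells (0.461 to 0.465) and 0.453 in control red cells (0.452 to 0.455). In single cells it ran from 0.318 through a median of 0.444 to 0.779 in the Keap1 cKO library and from 0.238 through 0.442 to 0.724 in the control library, so the cells of the libraries overlapped almost entirely. The small difference between the sums turned round when Hba-a1 alone was set against Hbb-bs alone, at 0.368 in Keap1 cKO and 0.373 in control red cells. UMI counts of different genes depend on how well each is captured, so the ratio is not that of the proteins.

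Minor globins were almost absent. Hbq1a, a theta globin gene of the alpha cluster, had 25 UMIs in Keap1 cKO and 50 in control red cells. Its copy Hbq1b had 19 and 39. The embryonic alpha-like gene Hba-x had 0 UMIs in Keap1 cKO red cells and 3 in control red cells, each in a different cell. The embryonic beta-like genes Hbb-y, Hbb-bh0, Hbb-bh1, Hbb-bh2 and Hbb-bh3 have no values in the data used here, so they were not analysed.

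By the split between the alpha globin copies, red cells fell into separate ranges. Hba-a2 made up 16.8% to 25.7% of alpha globin UMIs in 45 Keap1 cKO red cells (median 21.2%) and 34.9% to 49.2% in the other 75 (median 42.6%). In the control library it made up 18.2% to 25.9% in 80 red cells (median 21.8%), 36.3% to 47.7% in 95 (median 42.4%), and 0.912% to 1.08% in 3. No red cell lay within 4 points of 30%. The upper range held 62.5% of Keap1 cKO and 53.4% of control red cells, and Hba-a2 made up 35.1% and 32.8% of alpha globin over all red cells. The Hbb-bt share of beta globin ran from 8.13% to 27.2% in Keap1 cKO and from 9.36% to 27.9% in control red cells, with totals of 18.4% in each. These ranges were seen in the values and then set, so they are given as a description.

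**Figure D1:**
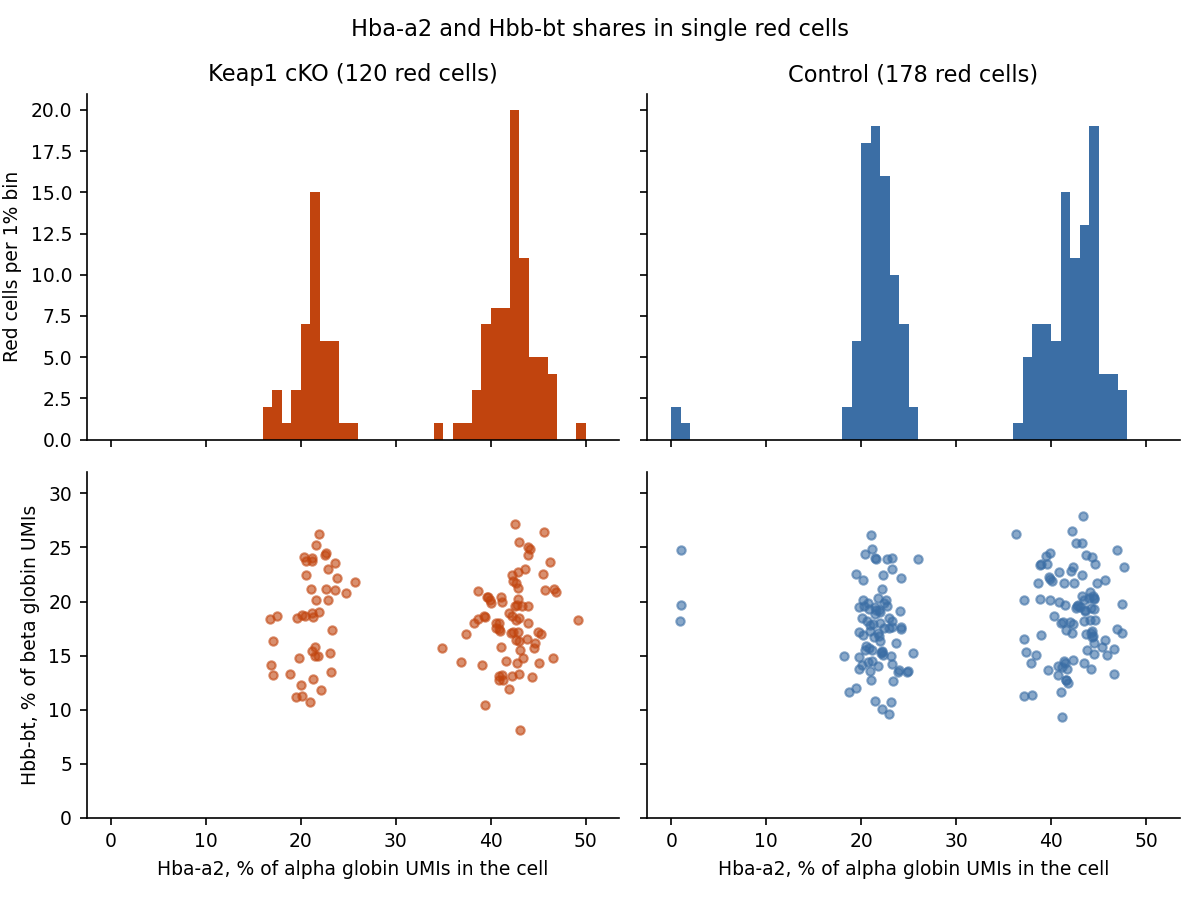
Single red cells by the Hba-a2 share of alpha globin UMIs (x axis, %): the number of cells per 1% bin above, and the Hbb-bt share of beta globin UMIs (y axis, %) below, with the Keap1 cKO library on the left and the control library on the right. The cells fall into ranges near 21% and near 42% on the x axis in both libraries, and 3 control cells lie near 1%.

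In the lower range the ratio of alpha to beta globin was 0.428 in the Keap1 cKO and 0.440 in the control library, and in the upper range it was 0.483 and 0.465, so it was lower where Hba-a2 was low in both libraries. As shares of all UMIs, Hba-a1 was higher in the lower range than in the upper by 0.32 in the Keap1 cKO and 0.40 in the control library on the log2 scale. Hba-a2 had 25694 UMIs in the lower and 99412 in the upper range of the Keap1 cKO library, and 52868 and 130200 in those of the control library. The directions of Hba-a1 and Hba-a2 follow from how the ranges were set. The ratio of alpha to beta globin holds the same UMIs, and the share of Hbb-bs has them in its total. Neither is therefore independent of the ranges. Of 368 genes with at least 60 red cell UMIs, 6 had counting intervals that left out 0 in the same direction in both libraries, Hba-a1 and Hba-a2 included, and 10 had intervals that left out 0 in opposite directions, with no adjustment for their number. Of the 6, Hbb-bs was higher in the lower range and Prdx2, Riok3 and Serf2 were lower. Bpgm, Ucp2, Pabpc1 and Gm42418 were among the 10. Riok3, an atypical kinase needed for the late maturation of red cells, had 27 UMIs in the lower and 80 in the upper range of the Keap1 cKO library and 72 and 130 in the control library. The ranges differ in cells, and as shares of all UMIs its log2 ratios of lower over upper were -0.74 (-1.43 to -0.10) and -0.55 (-0.99 to -0.13). Whether the ranges follow mice, alleles or the placing of reads was not tested.

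Globin UMIs were also found outside the red cells, in a different balance. Among other cells with under 100 globin UMIs (2224 Keap1 cKO and 2186 control cells), the ratio of alpha to beta globin was 0.364 in the Keap1 cKO and 0.361 in the control library, below that of the red cells in each. The Hbb-bt share of beta globin there was 15.3% and 13.4%. Another 24 Keap1 cKO and 93 control cells held at least 100 but under 500 globin UMIs, of which 19 and 91 belonged to clusters 6 and 10, and they had medians of only 869 and 1063 UMIs in all. In them the ratio was 0.627 and 0.601, above that of the red cells, and the Hbb-bt share was 10.8% and 4.59%. A further 13 Keap1 cKO and 15 control cells outside the red cells held 500 globin UMIs or more. Their globin UMIs, 58085 and 80465, outnumbered the 20776 and 23145 of the cells with under 100. The ratio of alpha to beta globin in them was 0.520 and 0.552, and the Hbb-bt share was 9.56% and 16.9%. The annotation gives these cells other types, doublets were not called, and their origin was not tested. Alas2 stood at 1.61 and 1.70 UMIs per 1000 globin UMIs in red cells. In the cells with 500 or more it stood at 1.29 and 1.58, from 75 and 127 Alas2 UMIs. It was at 0.542 and 1.21 in the cells with 100 or more but under 500, from 3 and 18. In the cells with under 100 it was at 5.01 and 2.77, from 104 and 64.

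**Figure D2:**
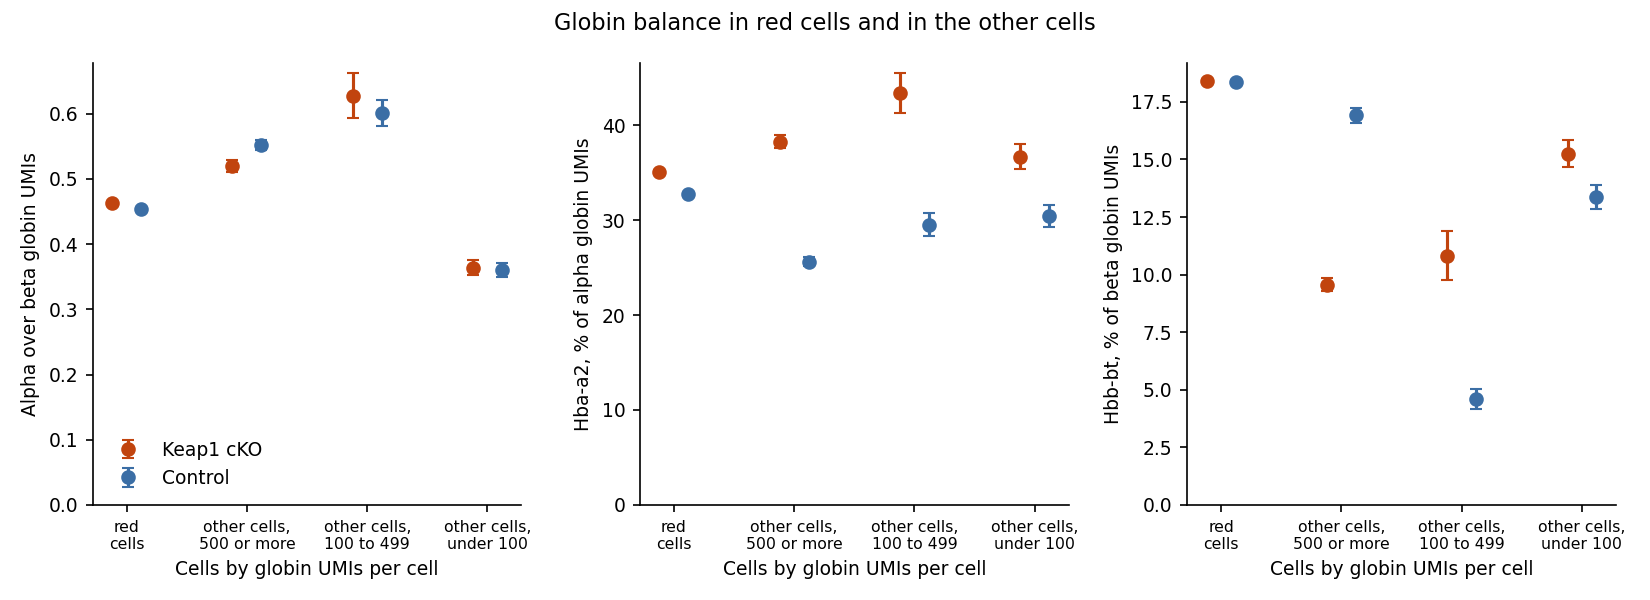
Ratio of alpha to beta globin UMIs, Hba-a2 share of alpha globin UMIs (%) and Hbb-bt share of beta globin UMIs (%) in red cells and in other cells grouped by their globin UMIs per cell, with Keap1 cKO points left of control points and exact 95% counting intervals. Other cells with under 100 globin UMIs lie below the red cells in the first panel, and control cells in the middle globin range lie lowest in the third at 4.59%.

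Outside globin a red cell held little RNA, a median of 635 UMIs in the Keap1 cKO library (327 to 1400) and 620 in the control library (305 to 1590). To see how much of it could be free RNA, the UMIs per red cell of marker genes of 5 other cell classes were divided by their UMIs per other cell. Keratinocyte markers stood at 4.52% of the level of other cells in the Keap1 cKO (4.15 to 4.92) and 4.19% in the control library (3.99 to 4.40), the highest of the 5. Fibroblast markers stood at 1.97% and 2.05%, and phagocyte markers at 3.11% and 3.95%. Endothelial markers stood at 2.34% and 1.42%, from 20 and 4 UMIs, and T cell markers at 3.12% and 3.67%, from 60 and 14. Among defining markers, Trp63, Pdgfra, Cdh5, Cd68 and Ms4a7 had 0 UMIs in Keap1 cKO red cells, and Pecam1, Cdh5, Kdr, Flt1, Tie1, Cd3e and Ms4a7 had 0 in control red cells. Other genes of the same lists had UMIs there, so these zeros do not show that a class left no free RNA. B cell and plasma cell, mast cell and melanocyte markers were at 0 in red cells of both libraries, but were so rare elsewhere that these zeros allow levels of up to 25.7% or more and give no measure of free RNA. Platelet markers (5 and 11 UMIs) stood at 8.07% and 4.58% and muscle markers (50 and 33 UMIs) at 10.6% and 5.56%. If every gene of the other cells had reached red cells at the keratinocyte level, such RNA would make up 71.5% of the non-globin UMIs of Keap1 cKO and 74.7% of those of control red cells, and at the median of the 5 levels 49.2% and 65.4%.

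A non-globin gene was counted as kept when it had at least 20 red cell UMIs over both libraries and passed a threshold in each. The lower 95% bound of its UMIs per red cell over its UMIs per other cell had to exceed 3 times the keratinocyte level. That level was taken as the free RNA level, and 3 times it is 13.6% in the Keap1 cKO and 12.6% in the control library. Of 927 non-globin genes with at least 20 red cell UMIs, 140 were kept (15.1%). They held 46.7% of the non-globin UMIs of Keap1 cKO and 45.6% of those of control red cells. Gm42418 alone, which collects ribosomal RNA reads, gave 30.6% of the kept UMIs in Keap1 cKO and 19.1% in control red cells. The ratios at the edge run on without a gap: Hipk1, Dnajb6 and Taldo1 were just inside, at 0.205, 0.198 and 0.179 times the level of other cells in the Keap1 cKO library, and Atg12, Lmo2 and Abtb1 just outside, at 0.244, 0.292 and 0.294 times with lower bounds under the threshold in at least 1 library. The other 787 genes had medians of 3.98% and 3.59%. Kept thus means above 3 times the keratinocyte level. Muscle markers stood higher than keratinocyte markers, at 10.6% in the Keap1 cKO (7.86 to 13.98) and 5.56% in the control library. Platelet markers did too, at 8.07% and 4.58%. Kept genes near the threshold are therefore not shown to be above all free RNA. Kept need not mean richer than in other cells either: the lower bound of the ratio exceeded 1 in both libraries for 51 genes. The cells were clustered on these genes, so no difference between red cells and the rest was tested.

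**Figure D3:**
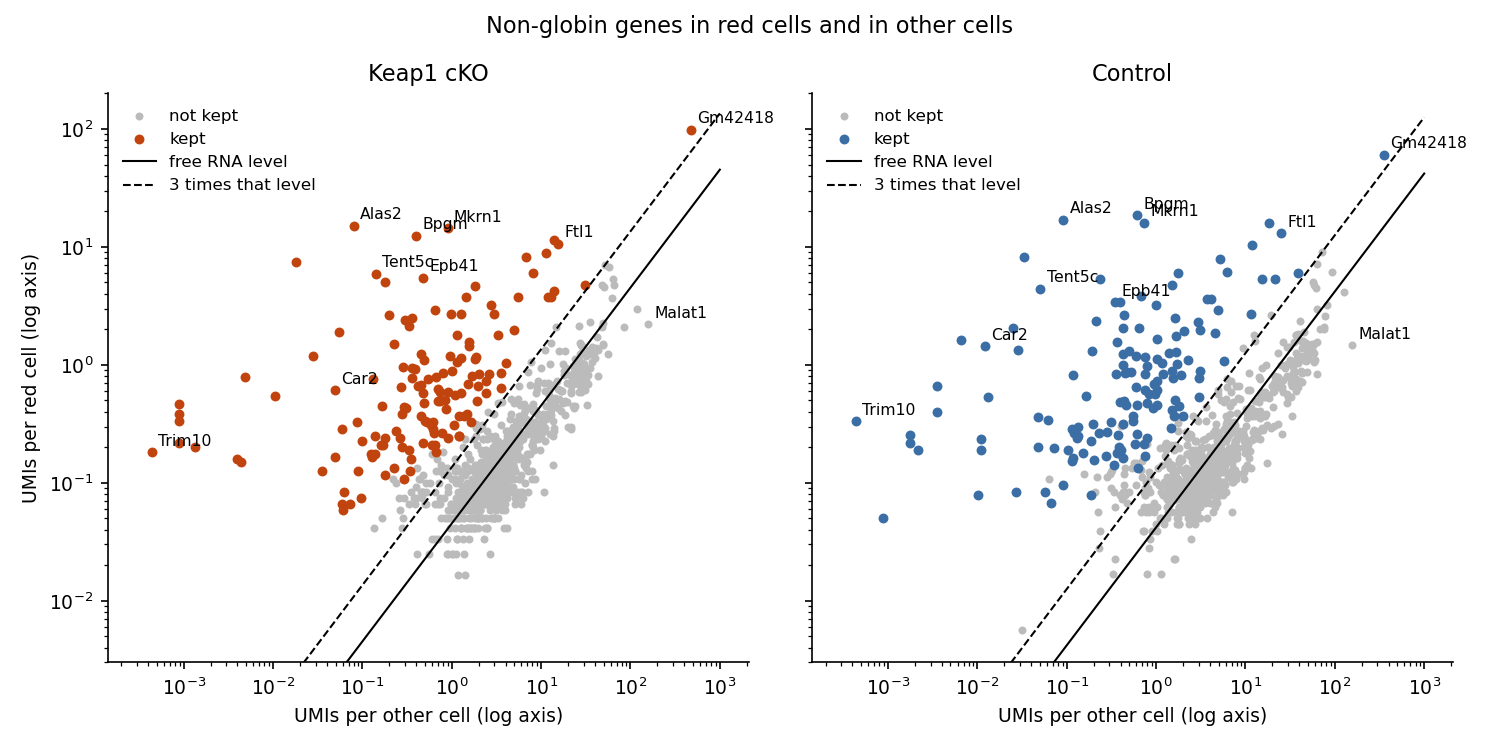
UMIs per red cell against UMIs per other cell for non-globin genes (log axes, 1 point a gene), with the Keap1 cKO library on the left and the control library on the right, kept genes in colour and other genes in grey. The grey genes follow the solid line of the free RNA level, and Alas2, Bpgm, Tent5c and Trim10 stand far above the dashed line at 3 times that level.

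The kept messages were few and uneven. The first 15 by UMIs, Gm42418 included, held 67.8% of kept UMIs in Keap1 cKO and 63.5% in control red cells. Of the 140 genes 17 and 18 had a UMI in at least 90% of red cells, and 51 and 52 had one in under 25%. Alas2 gave 1816 UMIs in Keap1 cKO red cells (1 to 30 per cell, median 15) and 3038 in control red cells (3 to 39, median 17), 188 and 187 times the level of other cells. Bpgm, the enzyme that makes the bisphosphoglycerate by which red cells loosen oxygen from hemoglobin, gave 1495 (0 to 49, median 10.5) and 3299 UMIs (0 to 61, median 17), 30.9 and 30.5 times that level. Tent5c, a poly(A) polymerase that lengthens the tails of messages, gave 712 (0 to 16, median 5) and 790 UMIs (0 to 19, median 4), 41.8 and 87.8 times. Since a 3′ UMI counts a molecule and not its length, these levels can be set side by side across genes only as counts of captured molecules.

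The share of other cells with these messages differed by gene. Alas2 had a UMI in 4.81% of Keap1 cKO and 2.39% of control cells of fibroblast cluster 1, at median depths of 14798 and 11930 UMIs, against 100% of red cells. With each cell thinned to 3000 UMIs, which left out no red cell and 9 and 2 of the fibroblasts, Alas2 was seen in 98.3% and 98.3% of red cells and in 1.69% and 1.10% of those fibroblasts. Tent5c was seen in 79.2% and 60.7% of thinned red cells, against 1.69% and 0% of thinned fibroblasts. Mkrn1 was seen in 94.2% and 96.1% of thinned red cells, in 14.6% and 12.7% of thinned fibroblasts, and in 42.1% and 40.4% of the thinned cells of T cell cluster 3.

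The kept rule could be met only by genes with at least 20 red cell UMIs, so each list is given below by its genes in the table, those with that many UMIs and those kept. Over all 927 non-globin genes with that many UMIs, 15.1% were kept. Of 16 heme synthesis genes 5 had at least 20 UMIs and 4 were kept: Alas2, Fech, Slc25a39 and Fam210b. Urod had enough UMIs and was not kept, and Cpox, an enzyme of the middle of the pathway, had 1 and 2 UMIs. Fech, which puts iron into heme, gave 300 UMIs in Keap1 cKO and 473 in control red cells, 6.88 and 6.10 times the level of other cells. Slc25a39, the mitochondrial glutathione carrier, gave 322 and 572. Of 18 iron genes 6 had at least 20 UMIs, and these 6 were kept. Tfrc, the transferrin receptor that brings iron into erythroid precursors, had 2 UMIs in Keap1 cKO and 1 in control red cells. Ftl1 and Fth1, the light and heavy chains of the iron store ferritin, gave 1281 and 571 UMIs in Keap1 cKO red cells and 2335 and 1074 in control red cells, yet Fth1 stood at only 0.154 and 0.156 times the level of other cells. Slc25a37, the mitoferrin that brings iron into mitochondria, gave 319 and 417 UMIs, 13.2 and 11.1 times. Glrx5 and Isca1 build iron-sulfur clusters, and Ncoa4 carries ferritin to be broken down.

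Of 28 tabulated membrane genes, 12 had at least 20 UMIs and 7 were kept, mostly at low counts. Epb41, a protein of the membrane skeleton, was the most abundant, with 659 UMIs in Keap1 cKO and 603 in control red cells and a UMI in 97.5% and 87.6% of them. Slc4a1, the anion exchanger band 3 that swaps chloride for bicarbonate, gave 56 and 71 UMIs in red cells, against 2 and 8 UMIs in all other cells. Car2, the carbonic anhydrase that turns carbon dioxide into bicarbonate, gave 73 UMIs in 20.8% of Keap1 cKO and 256 in 27.0% of control red cells, up to 15 and 28 in a single cell. Actb, Bsg, Aqp1 and Cd47 were not kept, and Aqp1, with 16 and 7 UMIs, stood at 0.0340 and 0.0533 times the level of other cells.

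Of 15 tabulated glycolysis genes, 9 had at least 20 UMIs, and of these Bpgm was kept, near the 15.1% kept over all 927 genes. The other 8, among them Gapdh with 28 Keap1 cKO and 54 control UMIs, Aldoa with 33 and 36 and Pkm with 22 and 28, had medians of 3.78% and 3.19% of the level of other cells, near that of free RNA. Their counts cannot be told apart from it.

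Peroxide defence was kept in part. Of 18 antioxidant genes 9 had at least 20 UMIs, and Gpx1, Prdx2, Cat, Blvrb and Gclm were kept. Gpx1, which reduces peroxides with glutathione, gave 719 UMIs in Keap1 cKO and 1088 in control red cells, with up to 49 and 56 in a single cell. Prdx2, the peroxiredoxin abundant in red cells, gave 389 and 639. Catalase (Cat) gave 94 and 110. The NRF2 targets are of interest because KEAP1 holds the factor NRF2 in check, although K5CreERT2 is not directed at the red lineage. Of 22 targets 10 had at least 20 UMIs, and Ftl1, Fth1, Blvrb, Gclm and Taldo1 were kept.

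Ubiquitin and mitophagy genes were kept in part and were abundant. Mkrn1, a ubiquitin ligase, gave 1734 UMIs in Keap1 cKO and 2862 in control red cells. Ubb, which encodes ubiquitin, gave 1370 and 2849, with up to 55 and 93 in a single cell. Ube2l6, a conjugating enzyme for ubiquitin and ISG15, gave 604 and 945, 28.4 and 22.5 times the level of other cells. Of 24 tabulated ubiquitin genes, 20 had at least 20 UMIs and 12 were kept, at 38.9 and 46.3 UMIs per red cell. Of 17 mitophagy genes 9 had at least 20 UMIs, and Bnip3l, the mitochondrial receptor through which reticulocytes lose their mitochondria, Gabarapl2, Map1lc3b and Fis1 were kept, and Bnip3l gave 563 and 1060 UMIs in 94.2% and 98.3% of red cells.

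Late erythroid genes were kept in part. Of 42 tabulated, 22 had at least 20 UMIs and 15 were kept, among them Tent5c, Isg20, an RNA exonuclease, with 287 UMIs in Keap1 cKO and 605 in control red cells, and Ucp2, a mitochondrial carrier, with 239 and 411. Trim10, known from terminal erythroid differentiation, had 22 and 59 UMIs in red cells and 1 and 1 in all other cells, so that its ratio of 415 in the Keap1 cKO library has a counting interval from 67.0 to 17107. Apol11b, Tspo2, Paqr9, Fam220a, Rec114, Syt14 and Rsad2, with Alas2, Bpgm, Tent5c and Slc4a1, were also among the 15 genes with the highest ratios. Of 20 early erythroid and division genes, 15 had a UMI in red cells and 4 had at least 20. The others, Kit, Myb, Epor, Klf1 and Mcm2, had 0 UMIs in red cells of both libraries, so they were not detectable at this depth. Such zeros say little: those of Kit allow up to 0.257 and 1.81 times the level of other cells. Nusap1, a spindle protein of dividing cells, was the 1 kept gene of the 20, with 40 and 34 UMIs.

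Most translation and mitochondrial genes were not kept. Of 18 translation genes 16 had at least 20 UMIs. Of these Pabpc1, the poly(A)-binding protein, and Eif5 were kept, near the 15.1% kept over all 927 genes. The other 14 had medians of 4.20% and 3.27% of the level of other cells. Tpt1 was the most abundant of them, with 846 UMIs in Keap1 cKO and 1625 in control red cells at 0.135 and 0.128 times that level. Of 13 mitochondrially encoded genes 12 had at least 20 UMIs. None of the 12 was kept, which for so few is near that 15.1%. Their medians of 8.24% and 5.98% were nevertheless above the keratinocyte level, with mt-Co1 at 0.120 and 0.115 times the level of other cells. The nuclear RNA Malat1 stood at 0.0140 and 0.00949 times that level, below all 5 marker classes. Gm42418, which had the most UMIs of all kept genes, lies over a ribosomal RNA repeat and collects its reads, and gave 98.9 and 60.6 UMIs per red cell, or 0.207 and 0.169 times the level of other cells. AY036118 overlaps it on the other strand, and reads of the pair may not be told apart.

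Between the genotypes, most kept genes stood within 1.5-fold. Fold changes are log2 values of a gene's share of all red cell UMIs in the Keap1 cKO library over that in the control library. The size of 1.5-fold is used to count genes, with no test behind it. Ratios of other cells are from sums over all their types, whose mix differs between the libraries. T cell cluster 3 had 378 Keap1 cKO and 59 control cells, and fibroblast cluster 1 had 187 and 545. The part of this mix in those ratios was not tested. Of 933 genes with at least 20 UMIs, 165 (17.7%) were at least 1.5-fold higher in Keap1 cKO red cells and 175 (18.8%) at least 1.5-fold lower, together 340 (36.4%). Of the 140 kept genes, 12 were higher and 13 lower (17.9% together), with a median of -0.07, against a median of -0.04 over all 933. Of the 787 others, 153 were higher and 162 lower (40.0%). The sets cannot be compared on this count, because a kept gene had to pass the threshold in each library and so could not be near 0 in either. The sets differ in depth as well, and with at least 50 UMIs 19 of 126 kept genes and 99 of 419 genes in all were 1.5-fold apart. Scaled on non-globin UMIs alone, 8 kept genes were higher and 15 lower. Without the 74 Keap1 cKO and 87 control red cells that held UMIs of 3 or more of the 5 marker classes, 47 kept genes were 1.5-fold apart, on 46 and 91 cells.

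**Figure D4:**
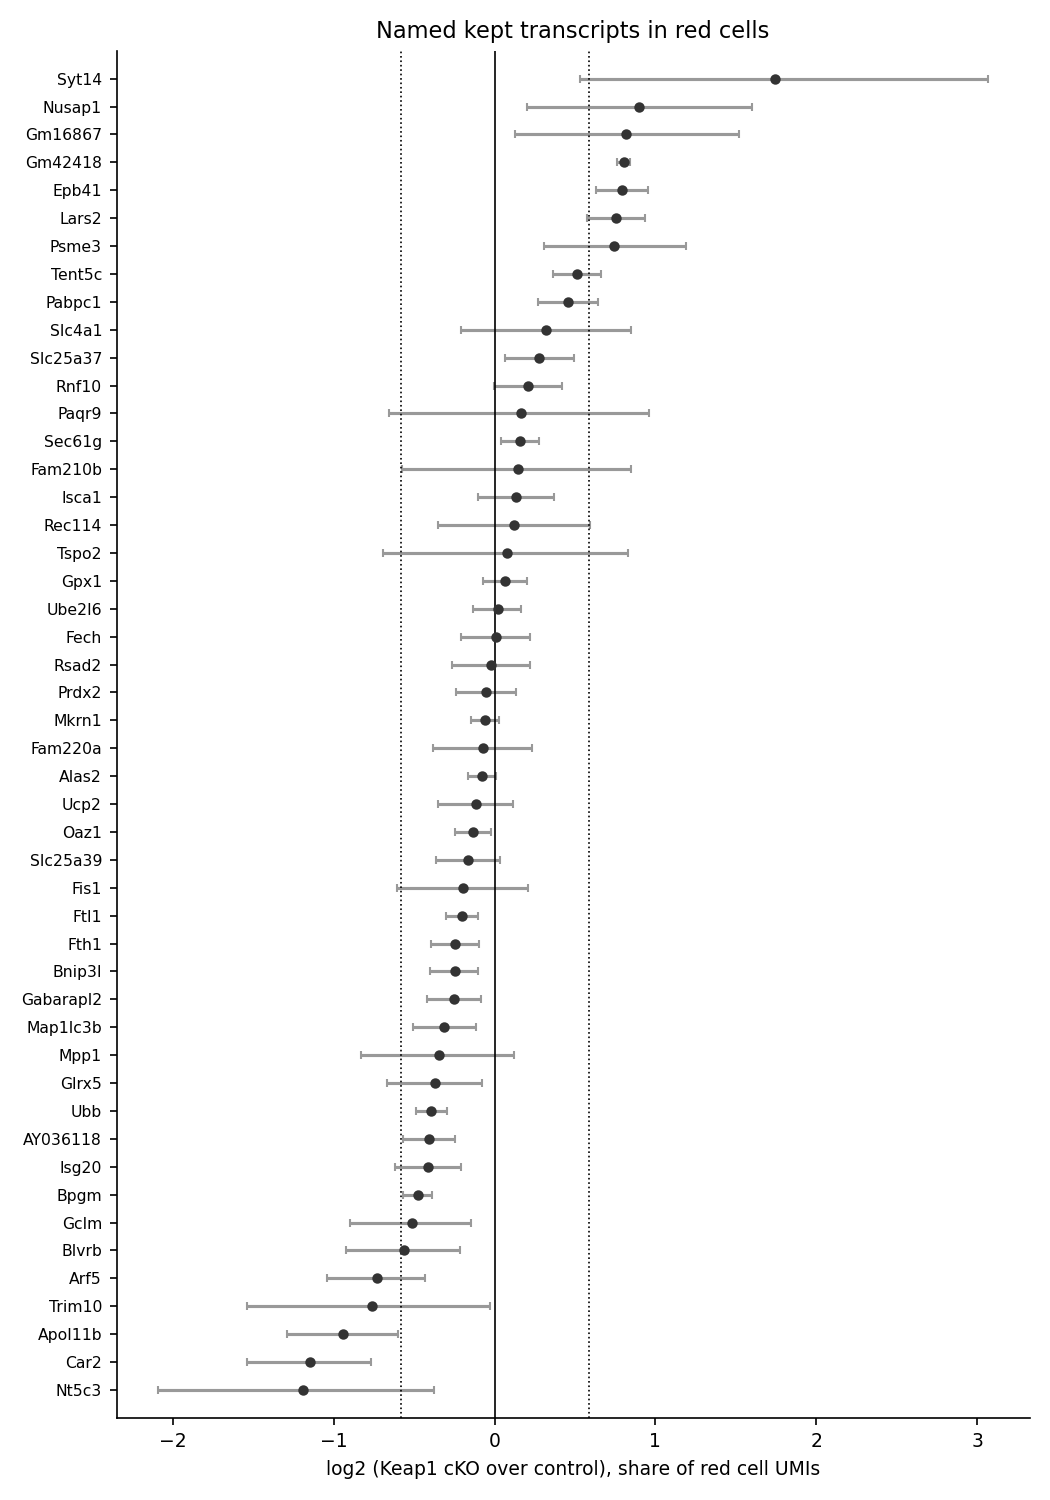
Log2 ratio of Keap1 cKO over control for 48 kept genes named by rule, as shares of all red cell UMIs, with exact 95% counting intervals. Dotted lines mark 1.5-fold either way, and Syt14, Nusap1, Gm16867, Gm42418, Epb41, Lars2 and Psme3 lie beyond the right one.

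The markers stayed within 1.5-fold, with Bpgm lower and Tent5c higher in Keap1 cKO red cells. Alas2 stood at 1502 CPM (UMIs scaled to a library total of 1000000) in Keap1 cKO and 1585 CPM in control red cells, a log2 ratio of -0.08 (-0.16 to 0.01). Bpgm stood at 1236 and 1722 CPM, a ratio of -0.48 (-0.57 to -0.39). Tent5c stood at 589 and 412 CPM, a ratio of 0.51 (0.37 to 0.66), and in other cells it was also higher in the Keap1 cKO library, by 1.67. Hbb-bs, Hbb-bt and Hba-a1 had ratios of -0.02, -0.01 and -0.04, and Hba-a2 was higher by 0.11. None of the 5 markers reached 1.5-fold, although Tent5c passed it, at 0.59, in 1 other setting.

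Among kept genes with at least 50 UMIs, the highest ratios were those of Nusap1 (0.90, 0.20 to 1.60), Gm16867 (0.82), Gm42418 (0.80), Epb41 (0.79, 0.63 to 0.95), Lars2 (0.75), the mitochondrial leucyl-tRNA synthetase, and Psme3 (0.75), an activator of the proteasome. Epb41 reached this from 545 CPM in Keap1 cKO and 315 CPM in control red cells and held between 0.71 and 0.99 under the other scalings and cell choices, whereas Psme3 came to 0.09 without the cells that held 3 or more marker classes. In other cells of the Keap1 cKO library Epb41 (0.63, 0.50 to 0.77), Psme3 (0.62), Gm42418 (0.60), Nusap1 (0.49), Gm16867 (0.46) and Lars2 (0.43) were higher too. Those ratios are from sums over all types, whose mix differs between the libraries, and their intervals do not cover that. Syt14, with 19 and 9 UMIs in all, had the highest ratio of any kept gene at 1.74 (0.53 to 3.07). Among the lowest were Nt5c3 (-1.19, -2.09 to -0.38), the nucleotidase that clears pyrimidines from maturing red cells, Car2 (-1.15, -1.54 to -0.77), Apol11b (-0.94), Trim10 (-0.76) and Arf5 (-0.73), a small GTPase. Car2, Apol11b and Trim10 were each seen in under 50% of red cells of both libraries. In other cells Car2 was 2.19 higher in the Keap1 cKO library, from 111 and 28 UMIs.

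By role, 0 of 4 kept heme genes and 0 of 6 kept iron genes were 1.5-fold apart, beside 17.9% of all kept genes, so 0 of so few is near the background. Of 7 kept membrane genes 1, Epb41, was higher and 1 lower, and of 12 kept ubiquitin genes Ube2b (-0.68) and Trim10 were lower. None of the 4 kept mitophagy genes, of the 5 kept antioxidant genes or of the 15 kept late erythroid genes was 1.5-fold apart, although Map1lc3b came to -0.71 without the cells that held 3 or more marker classes. None of the 5 kept NRF2 targets was either, with Gclm at -0.52 (-0.90 to -0.14), Blvrb at -0.56, Fth1 at -0.25, Ftl1 at -0.20 and Taldo1 at -0.19. Blvrb passed 1.5-fold in 4 of 5 other settings, down to -0.83, and Gclm in 2, down to -0.63. The targets that were 1.5-fold apart lay at the level of free RNA: Prdx1 was higher by 1.36 and Gstm1 by 1.29 in red cells, from 84 and 85 UMIs in Keap1 cKO and 52 and 55 in control red cells, and they were higher by 0.94 and 0.68 in other cells too, while Tkt had 7 and 18 UMIs and a ratio of -0.70.

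Genes that were not kept had ratios near those of the tissue around the red cells. The kept rule used the ratio of red cells to other cells in each library. This nearness, and the contrast with kept genes, therefore follow in part from how the genes were chosen. Where the RNA came from was not tested. Of the 41 that were not kept and at least 2-fold higher in Keap1 cKO than in control other cells, 35 were at least 1.5-fold higher and 2 lower in red cells, with a median of 1.75 in red cells and 1.62 in other cells. Of the 38 at least 2-fold lower in other cells, 37 were at least 1.5-fold lower in red cells, with medians of -1.64 and -1.40. S100a8 and S100a9, calprotectin chains of neutrophils and stressed epithelium, had 123 and 117 UMIs in Keap1 cKO red cells and 3 and 4 in control red cells, with ratios of 6.02 and 5.53 in red cells and 6.73 and 6.20 in other cells. Krt6a, a keratin of stressed epithelium, was 2.92 higher in red cells and 2.12 higher in other cells. Gsn, an actin-severing protein, had 31 UMIs in Keap1 cKO and 742 in control red cells, a ratio of -3.92, against -3.16 in other cells. Krt15, a basal keratin, had 42 and 326 UMIs, at -2.29 and -2.33. Igfbp6, Serping1, Cd63 and Retnla were also among the 6 lowest, and S100a4 (2.46), Wfdc2 (2.15) and H2-Eb1 (2.14) among the 6 highest. Of the 11 kept genes at least 2-fold higher in Keap1 cKO than in control other cells, 1 was at least 1.5-fold higher in red cells and 1 lower, with a median of 0.15 in red cells and 1.92 in other cells.

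**Figure D5:**
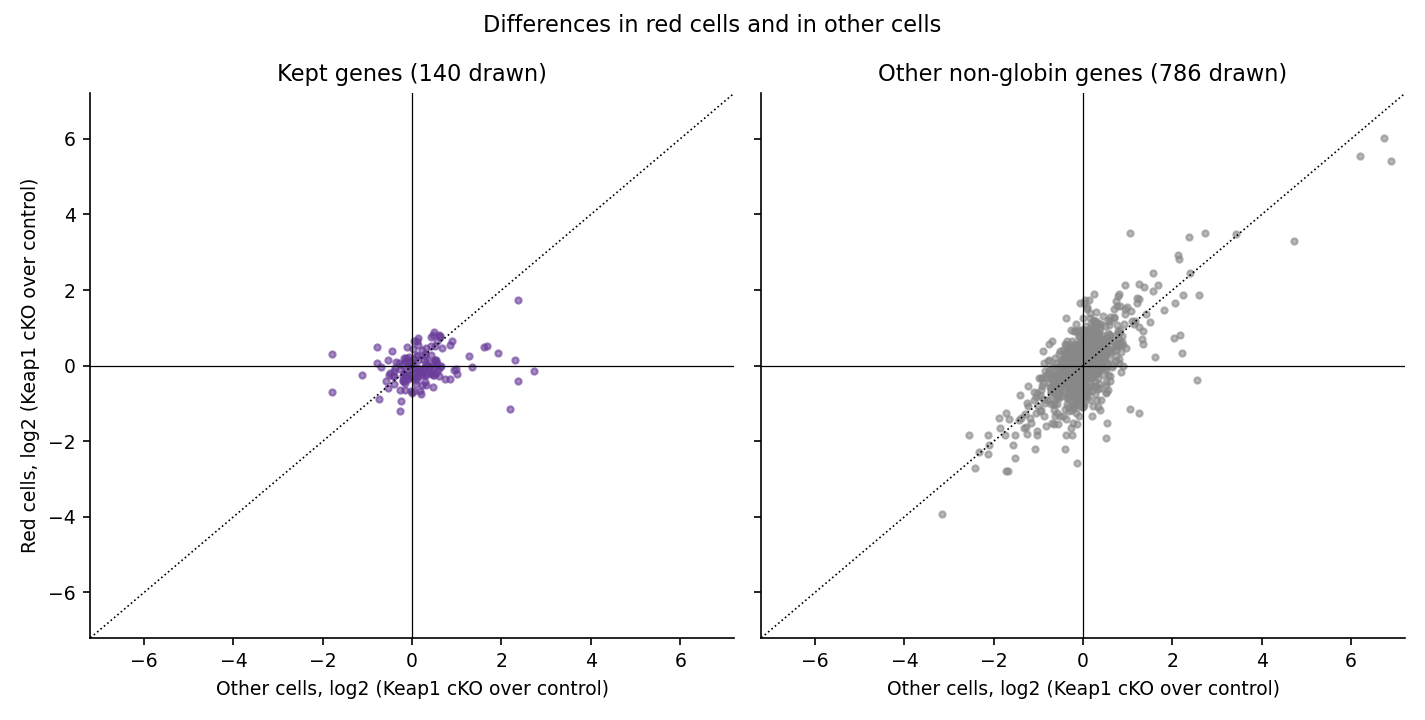
Log2 ratio of Keap1 cKO over control in red cells (y axis) against that in other cells (x axis) for the 140 kept genes on the left and the other non-globin genes with UMIs in both libraries on the right, with the dotted line of equal ratios. The other genes scatter along the dotted line out to S100a8 at 6.73 and 6.02, while the kept genes stay between -1.19 and 1.74 in red cells. Both sets were sorted on the ratio of red cells to other cells in each library, which in part sets this contrast.

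Red cells of a library also differed among themselves in how much they had kept. Kept messages took 1.40% to 7.202% of a Keap1 cKO red cell's UMIs (median 2.89%) and 0.953% to 7.83% of a control red cell's (median 2.57%). Gm42418, which collects ribosomal RNA reads, is counted in this share. Alas2 was steady, with its middle 90% of cells between 0.0710% and 0.232% of UMIs in the Keap1 cKO and between 0.0767% and 0.247% in the control library. Bpgm was not, and ran from 0% to 0.320% and from 0.0187% to 0.396% over the same share of cells. Over cells of a library, Spearman's rho of kept share with Bpgm share was 0.78 in 120 Keap1 cKO and 0.72 in 178 control red cells, and with Alas2 share 0.36 and 0.20. Bpgm and Alas2 are themselves part of the kept share, all shares fall as globin fills the cell, and the cells share a library, so these values are a description. The share of other classes' markers went with it too, with rho of 0.61 and 0.58, and its part in the relation was not tested.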

How the data were processed

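The red cells of 2 esophagus libraries were analysed, 1 for each genotype. The submitters' processing notes name the tools Seurat 4.0.2, R 4.1.1 and Cell Ranger 6.0.1 with the build mm10. As read from its values, the table that the authors deposited gives, for each gene and cell, the natural log of 1 plus counts scaled to 10000. The smallest step in each cell gave back UMI counts, and 100% of positive values came out whole within 0.01 UMIs. Cell types and clusters are the authors' deposited labels, used as given; no cell was removed and doublets were not called.

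UMIs were summed over red cells and over all other cells of a library (Python 3.11.15, numpy 2.4.6, scipy 1.17.1, pandas 2.3.3). Shares carry exact Clopper-Pearson and ratios exact conditional binomial 95% intervals, which cover counting error only. Ratios of genes at 0 in 1 library used a floor of 3 counts. The steps were tested on simulated data. No count model across genes was run, since each genotype had 1 library. Genes were named by rule: all globins, the markers, of each list the most abundant 4 and the most different 2, the 15 kept genes with most UMIs and the 15 with the highest red cell ratio, and the 6 highest and 6 lowest ratios among kept and among other genes with at least 50 UMIs. Serf2, Riok3, Ube2b, Cpox, Tfrc, Taldo1, Tkt, Cat, Ncoa4, Eif5, the genes at the edge of the kept rule and the genes at 0 were named after their values were seen. Members and lists were chosen with earlier results of these data known. Promoters are from RefSeq (GRCm38.p6) and gene positions from GENCODE vM21 on mm10, in which 928 of 934 names were found. Some genes that the rule names are not reported here.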

Additional observations from a re-analysis of the deposited data

Results flagged for a closer look

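Car2, the carbonic anhydrase, had ratios of opposite sign in red cells and in other cells summed over all types. Its log2 ratio of Keap1 cKO over control was -1.15 in red cells, from 73 UMIs in 120 Keap1 cKO and 256 in 178 control red cells, and 2.19 in other cells, from 111 and 28 UMIs. With 1 library for each genotype the difference between these ratios was not tested. The mix of types among the other cells differs between the libraries, and its part in the 2.19 was not tested either. In red cells Car2 kept its direction in the 5 other scalings and cell choices tried, between -1.90 and -1.15.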

How the results depend on the processing

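No paired analysis was possible because each genotype has 1 library and no result comes from a test. The globin share was 93.1% in Keap1 cKO red cells as a mean over cells, 93.8% in Keap1 cKO and 94.0% in control red cells without cells holding UMIs of 3 or more marker classes, and 93.4% and 93.8% with mitochondrial UMIs left out. The ratio of alpha to beta globin was 0.458 and 0.448 when log2 ratios were averaged over cells and turned back into a ratio. It was 0.465 and 0.458 without the cells with 3 or more classes, and 0.368 and 0.373 for Hba-a1 over Hbb-bs. The free RNA level was 3.11% and 3.67% as the median of the 5 lists, and 5.83% in the control library with each cluster weighted equally. Kept genes numbered 51 when more UMIs per red cell than per other cell were asked for, all among the 140, and between 120 and 159 under the other 5 rules. Genes 1.5-fold apart numbered 99 of 419 with at least 50 UMIs and 7571 of 10094 with at least 1. Of the kept genes 47 were apart without the cells with 3 or more classes, and between 19 and 29 in the other settings, among them free RNA subtracted, which was chosen after seeing the data; their median was -0.15 on non-globin UMIs. Of 51 named kept genes 10 changed sign in some setting, and of 13 that were 1.5-fold apart Apol11b, Lars2, Psme3 and Trim10 fell short in some setting, while Blvrb, Gclm, Map1lc3b, Slc4a1 and Tent5c passed 1.5-fold in some setting. A minimum of 1000 UMIs removed no red cell. Depth limits genes with few UMIs: Tkt, with 7 and 18, has a counting interval from -2.20 to 0.63. With 1 library for each genotype no replicate could be left out.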
